A study of Mus musculus with 34 samples.

Results

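The genes described here make up the lactate shuttle of the testis and the sperm forms of glycolytic enzymes. They were chosen by name: the lactate dehydrogenases Ldha, Ldhb and Ldhc, the glyceraldehyde-3-phosphate dehydrogenases Gapdh and Gapdhs, the phosphoglycerate kinases Pgk1 and Pgk2, the glucose transporters Slc2a1 and Slc2a3, and the monocarboxylate transporter Slc16a1. Of these 10 genes, 9 were matched to a probe, among 33370 gene names on the array. No probe was matched to Gapdh, which is not analysed here.

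RNA of mouse testis was measured on 34 Agilent 1-colour (Cy3) arrays, in 17 groups with 2 biological duplicates each, to ask how expression in Sertoli cells varies with the stage of the tubule and with retinoic acid (RA) signalling. All animals were of strain C57BL6/j and 6 to 8 weeks old. The first 10 arrays held whole testes, wild-type (WT) Sertoli cells sorted by FACS, Sertoli cells sorted from N3KO (Nanos3KO) mice, and cultured primary WT Sertoli cells given vehicle or RA (written as 1 mM in the labels) for 24 h. The other 24 held seminiferous tubules dissected at stages I-III, IV-VI, VII-VIII or IX-XII. For the VII-VIII group the sample titles read VI-VIII, and the stage in the source names is used here. The tubules were untreated, or came from adult testes injected 5 days earlier with lentivirus carrying Venus, a fluorescent protein that serves as the control, or dnRARa, by its name a dominant-negative retinoic acid receptor alpha. The marker used for sorting and the promoter that drives the viral inserts are not given in the labels. Germ cells make up most of a tubule, and in whole testes, tubules and impure cell fractions fewer cells of a type and less RNA per cell cannot be told apart.

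Sertoli cells take up glucose and release lactate, and meiotic and postmeiotic germ cells take up that lactate as fuel. The SLC2A transporters carry glucose and SLC16A1 (MCT1) carries lactate and pyruvate with protons. Lactate dehydrogenase interconverts pyruvate and lactate, with LDHA and LDHB as the subunits of most tissues and LDHC as the testis form. GAPDHS and PGK2 are the forms that replace GAPDH and PGK1 in spermatids and sperm. Pgk1 lies on the X chromosome, which is silenced during male meiosis, and Pgk2 is an autosomal retrogene.

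Levels are on a log2 scale of the processed signal, with 0 at each array's own 75th percentile. They compare a gene between arrays and not with another gene. A difference was called where limma's adjusted p, over all genes tested, was under 0.05. A spot counts as well above background where the scanner software marked it so.

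Ldhc with Ldha and Pgk2 with Pgk1, each a germ cell and a general form of the same enzyme, are shown first at their start sites. RefSeq promoter windows (GRCm38.p6) were held for 9 of the 10 genes, with none for Slc2a3. The 250 bases before the start were searched on both strands for 4 motifs. The cAMP response element was searched as TGACGTCA. The shorter core of that element was searched as TGACG. The GC box was searched as GGGCGG. The core of the hypoxia response element was searched as ACGTG. Matches are in capitals below, each sequence written 5′ to 3′ on the gene's own strand. Ldha was read from chr7:46845554-46845803 (+), Ldhc from chr7:46861013-46861262 (+), Pgk1 from chrX:106186850-106187099 (+) and Pgk2 from chr17:40208610-40208859 (-).
Ldha: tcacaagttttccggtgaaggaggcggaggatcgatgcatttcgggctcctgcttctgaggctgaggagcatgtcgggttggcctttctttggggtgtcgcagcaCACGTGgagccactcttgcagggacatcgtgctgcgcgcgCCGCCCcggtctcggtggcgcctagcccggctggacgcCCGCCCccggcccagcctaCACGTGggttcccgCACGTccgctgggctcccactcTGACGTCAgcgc
Ldhc: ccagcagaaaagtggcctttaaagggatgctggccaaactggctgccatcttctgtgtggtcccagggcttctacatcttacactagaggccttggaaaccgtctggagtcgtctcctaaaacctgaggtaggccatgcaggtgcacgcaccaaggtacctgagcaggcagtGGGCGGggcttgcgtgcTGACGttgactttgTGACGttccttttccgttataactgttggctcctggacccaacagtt
Pgk1: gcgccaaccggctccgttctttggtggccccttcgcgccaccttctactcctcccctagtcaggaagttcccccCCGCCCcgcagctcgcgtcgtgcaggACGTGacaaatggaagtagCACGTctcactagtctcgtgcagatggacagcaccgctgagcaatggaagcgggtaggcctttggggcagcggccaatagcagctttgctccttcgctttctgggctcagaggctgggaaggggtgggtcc
Pgk2: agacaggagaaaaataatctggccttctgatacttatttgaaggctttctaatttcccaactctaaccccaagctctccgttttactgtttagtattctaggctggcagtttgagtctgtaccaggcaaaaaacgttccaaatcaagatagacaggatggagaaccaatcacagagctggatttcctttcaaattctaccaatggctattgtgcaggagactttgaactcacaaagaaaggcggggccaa

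Ldha and Ldhc are neighbours on chromosome 7. The Ldha window shown held 25 CpG dinucleotides, 1 full cAMP response element, which also holds its 2 core matches, 2 GC boxes and 5 hypoxia cores. A further Ldha window held 9 CpG and 1 cAMP core, with no match to the other motifs. A hypoxia core within a palindrome counts on both strands. In the Ldhc window shown there were 8 CpG, 2 cAMP cores outside any full element, and 1 GC box. A further Ldhc window held 3 CpG and none of the motifs. The Pgk1 window held 17 CpG, 1 GC box and 2 hypoxia cores. The Pgk2 window held 3 CpG and none of the 4 motifs, and the 2 Gapdhs windows held 1 and 0 CpG and none of the motifs. Slc16a1 had the most CpG of the genes searched, 37. Over all 32851 windows of the table the median was 6 CpG, and 1.55% held the full cAMP element, 17.8% its core, 32.7% the GC box and 16.6% the hypoxia core. A match describes letters and not a site in use.

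On the arrays, 54.9% to 74.4% of spots were well above background, and no probe of these genes was saturated. Marker genes were summed as signal relative to the array's 75th percentile. The 10 Sertoli markers summed to 12.5-12.7 in whole testes and to only 13.9-20.6 in the sorted WT fraction, against 28.7-35.3 in sorted N3KO cells and 82.9-84.5 in cultured vehicle cells. The sorted WT fraction had Leydig markers at 1940-2030 (8 of 8 well above background on both arrays), against 207-211 in whole testes, 739-1120 in sorted N3KO cells and 11.3-12.1 in culture. Endothelial markers were called higher in it for 6 of 6 genes, where 38.2% of all genes were, with sums of 17.2-25.3 against 1.47-1.52. It also held 8 of 8 spermatid markers, at 467-737 against 2260-2470 in whole testes. Its label as Sertoli cells is therefore not borne out by these markers, and it is called the sorted WT fraction below. "Isolated cells" below stands for the sorted WT, sorted N3KO and cultured groups, whatever their make-up. In sorted N3KO cells the spermatid sum was 0.291-0.344, with Acrv1, Tnp2, Smcp, Odf1 and Akap4 not well above background, and for Nanos3, the deleted gene, neither array rose well above background. Their macrophage markers summed to 15.8-79.5, against 2.62-5.56 in the sorted WT fraction. In culture the spermatid sum was 0.223-0.263 with vehicle, while 8 of 8 spermatocyte markers stayed well above background at 12.8-13.1. Peritubular myoid markers summed to 70.6-72.7 with vehicle, against 15.8-16 in whole testes and 24.2-48.5 in N3KO cells. The 2 arrays of the sorted WT fraction differed in that sum, at 13.4 and 94.5. The part of these cell types in the results below was not tested. N3KO and cultured cells lay on slides of their own, so that for N3KO or vehicle against the sorted WT fraction group and slide cannot be told apart.

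**Figure D1:**
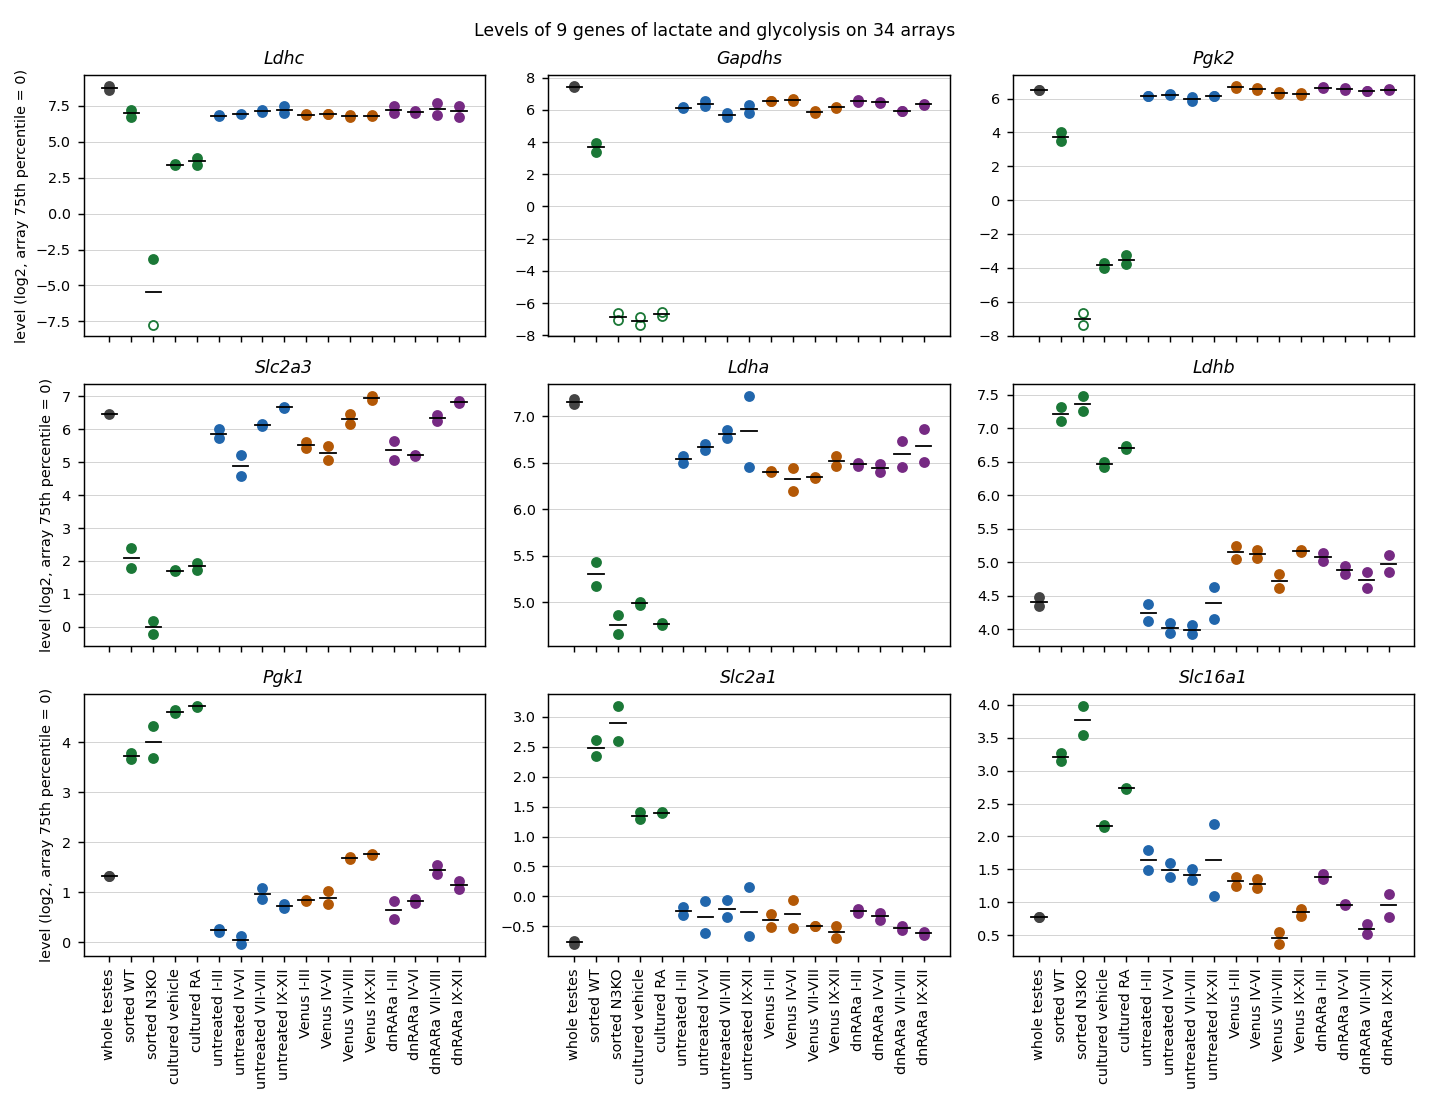
Level of each of the 9 genes (log2, with the array's 75th percentile at 0) on all 34 arrays in the 17 groups. Filled points are single arrays well above background, open points are not well above background, and the bar is the group mean; each panel has its own axis. Ldhc, Gapdhs and Pgk2 drop in sorted N3KO cells to group means of -5.46, -6.85 and -7, while Slc2a1 and Slc16a1 are at their highest there.

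Among the lactate dehydrogenases, the general form Ldha and the heart-type form Ldhb ran in opposite directions between whole testes and the isolated cells. Ldha stood at 7.13 and 7.19 in whole testes, 5.43 and 5.18 in the sorted WT fraction, 4.86 and 4.66 in N3KO cells, 5.01 and 4.97 with vehicle and 4.78 and 4.76 with RA. Ldhb stood at 4.35 and 4.48 in whole testes, 7.1 and 7.32 in the sorted WT fraction, 7.25 and 7.48 in N3KO cells, 6.5 and 6.42 with vehicle and 6.73 and 6.69 with RA. For each gene the whole testes did not overlap any group of isolated cells. The sorted WT fraction was 3.61-fold lower than whole testes for Ldha (log2 difference -1.85, SE 0.12, adjusted p = 1.18e-05) and 6.95-fold higher for Ldhb (2.8, SE 0.13, adjusted p = 3.02e-06). These are 2 of 8 calls among the 9 genes, where 79% of all genes tested were called.

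Across the 17 group means Ldha and Ldhb had r = -0.93, a description over groups that share arrays' scaling and cell make-up. Ldha was highest in whole testes and lowest in N3KO cells, a range of 2.4 log2 units. Ldhb was highest in N3KO cells (group mean 7.37) and lowest in untreated VII-VIII tubules (4), a range of 3.37. In the order of the group means, 12 of 16 neighbouring pairs of groups overlapped for Ldha and 11 of 16 for Ldhb.

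Against the sorted WT fraction, Ldha was 1.46-fold lower in N3KO cells (-0.55, SE 0.12, adjusted p = 0.00956). That call was lost when the fit held only the 4 arrays compared (adjusted p = 0.185), and under scaling by the array median the difference was 0.02. The other Ldha probe gave -1.26 for the same comparison. Ldhb differed by 0.16 (SE 0.13, adjusted p = 0.349) between the same groups, and by -0.02 after normexp background correction. In cultured vehicle cells Ldhb was 1.69-fold lower than in the sorted WT fraction (-0.76, SE 0.13, adjusted p = 0.00145), where the median over all genes was -0.22. Under scaling by the array median, which moved that all-gene median to 0.702, the Ldhb difference was 0.17 and the Ldha difference went from -0.32 (adjusted p = 0.0502, or -0.44 and 0.0235 without the second sorted WT array) to 0.6 (adjusted p = 0.00228). No direction in culture is therefore given for either.

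Ldhc, the testis form, stood at 8.63 and 8.85 in whole testes, 7.24 and 6.72 in the sorted WT fraction, 3.37 and 3.42 with vehicle and 3.86 and 3.41 with RA. In N3KO cells 1 array was at -3.19 and the other at -7.72, the latter not well above background. The groups other than vehicle and RA lay apart in that order. The N3KO difference from the sorted WT fraction was called (-12.44, SE 1.24, adjusted p = 0.000205), with 1 of 2 N3KO arrays measured above background. Its size takes in the N3KO signal at -7.72 that was not well above background, and is not exact. The sorted WT fraction differed from whole testes by -1.76 without a call (SE 1.24, adjusted p = 0.229), and with only those 4 arrays in the fit the same difference was called (adjusted p = 0.00234). The SE of 1.24 pools the spread of all 5 groups of the model. The SD of the duplicates was 3.2 in N3KO cells, 0.37 in the sorted WT fraction, 0.16 in whole testes, 0.04 with vehicle and 0.32 with RA. Vehicle cells were 12-fold lower than the sorted WT fraction (-3.59, SE 1.24, adjusted p = 0.0336). This call was lost when any 1 of the 4 arrays was left out (adjusted p from 0.0886 to 0.128) and under quantile (0.0819) or median scaling (0.0636). In culture Ldhc was well above background beside spermatid markers that summed to 0.223-0.263 and spermatocyte markers at 12.8-13.1.

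The sperm glycolytic enzymes fell below the background threshold in some isolated cells, as Ldhc did on 1 array. Gapdhs, the sperm glyceraldehyde-3-phosphate dehydrogenase, stood at 7.41 and 7.45 in whole testes and 3.95 and 3.38 in the sorted WT fraction. It was not well above background on any N3KO, vehicle or RA array, with values from -7.33 to -6.56. Against whole testes, the sorted WT fraction was 13.6-fold lower (-3.76, SE 0.25, adjusted p = 1.17e-05). A gene not well above background has only a bound, set against the higher of its own signal and the lowest signal well above background on each array. By it, the Gapdhs probe used was at least 619-fold lower in N3KO than in the sorted WT fraction (adjusted p = 3.14e-07). With vehicle it was at least 1220-fold lower (adjusted p = 2.15e-07). The other, dimmer Gapdhs probe gave smaller log2 differences, -7.41 for N3KO and -9.27 for vehicle, against -10.51 and -10.77 for the probe used. The bounds therefore hold for that probe only. Here and below, an adjusted p beside a bound belongs to limma's fitted difference and not to the bound. That difference used signals not well above background, and such a gene was tested only through the group where it was higher.

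Pgk2, the phosphoglycerate kinase of late germ cells, stood at 6.53 and 6.52 in whole testes, 4.03 and 3.47 in the sorted WT fraction, -4 and -3.72 with vehicle and -3.26 and -3.76 with RA. On the N3KO arrays, -6.64 and -7.35, it was not well above background. The whole testes, the sorted WT fraction and the cultured cells did not overlap. Pgk2 was 6.82-fold lower in that fraction than in whole testes (-2.77, SE 0.3, adjusted p = 0.000124). N3KO cells were at least 658-fold lower than the sorted WT fraction (adjusted p = 4.91e-07) and vehicle cells 196-fold lower (-7.61, SE 0.3, adjusted p = 1.46e-06). Over the 17 groups Pgk2 and Gapdhs had r = 0.99. Pgk2 was well above background with vehicle and not in N3KO cells, while the spermatid marker sum was 0.223-0.263 with vehicle and 0.291-0.344 in N3KO cells.

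Pgk1, the general phosphoglycerate kinase, went the other way. It stood at 1.33 and 1.33 in whole testes, 3.66 and 3.78 in the sorted WT fraction, 4.33 and 3.69 in N3KO cells, 4.58 and 4.64 with vehicle and 4.73 and 4.71 with RA. Whole testes lay below every array of isolated cells, and the N3KO arrays overlapped those of the sorted WT fraction. Pgk1 was 5.23-fold higher in the sorted WT fraction than in whole testes (2.39, SE 0.2, adjusted p = 3.18e-05). Vehicle cells were a further 1.85-fold higher (0.89, SE 0.2, adjusted p = 0.00538). N3KO cells differed by 0.29 (SE 0.2, adjusted p = 0.262), and leaving out the first or second N3KO array gave -0.03 (adjusted p = 0.751) or 0.62 (adjusted p = 0.00178).

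Of the glucose transporters, Slc2a1 (GLUT1), the carrier of most somatic cells, was higher in the isolated cells than in whole testes. Slc2a1 stood at -0.79 and -0.74 in whole testes, 2.62 and 2.35 in the sorted WT fraction, 3.19 and 2.6 in N3KO cells, 1.29 and 1.41 with vehicle and 1.39 and 1.41 with RA. Whole testes were lowest and the cultured cells lay between them and the sorted cells. Slc2a1 was 9.52-fold higher in the sorted WT fraction than in whole testes (3.25, SE 0.2, adjusted p = 8.07e-06). Vehicle cells were 2.2-fold lower than the sorted WT fraction (-1.13, SE 0.2, adjusted p = 0.00162), a call lost under scaling by the array median (-0.21). N3KO cells differed by 0.41 (SE 0.2, adjusted p = 0.126), from 0.12 to 0.71 with arrays left out, and were called without the second N3KO array (adjusted p = 0.00513).

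Slc2a3 (GLUT3), the high-affinity glucose carrier, had the opposite pattern, with r = -0.95 to Slc2a1 over the 17 group means. In whole testes 1 array gave 6.46, the spot on the other being left out as an outlier. Levels were 2.39 and 1.8 in the sorted WT fraction, -0.22 and 0.19 in N3KO cells, 1.69 and 1.73 with vehicle and 1.95 and 1.73 with RA. The N3KO arrays lay below all others. The sorted WT fraction was 20.7-fold lower than the 1 whole testes array (-4.37, SE 0.29, adjusted p = 3.02e-05), and N3KO cells were 4.32-fold lower again (-2.11, SE 0.24, adjusted p = 0.000828). Vehicle cells differed from the sorted WT fraction by -0.38 (adjusted p = 0.19), or by 0.54 under scaling by the array median. With arrays left out the difference ran from -0.68 to -0.09, and it was called without the second sorted WT array (adjusted p = 0.0437).

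Slc16a1 (MCT1), the lactate carrier, followed Slc2a1 with r = 0.95 over the 17 group means. It stood at 0.78 and 0.78 in whole testes, 3.14 and 3.27 in the sorted WT fraction, 3.54 and 3.99 in N3KO cells, 2.18 and 2.15 with vehicle and 2.74 and 2.72 with RA. These 5 groups did not overlap. Slc16a1 was 5.37-fold higher in the sorted WT fraction than in whole testes (2.42, SE 0.15, adjusted p = 9.51e-06). N3KO cells were 1.47-fold higher again (0.56, SE 0.15, adjusted p = 0.0212). That call was lost with only the 4 arrays compared (adjusted p = 0.213) and without the cultured groups (0.0921). It was also lost after normexp correction (0.0553), with the mean of detected probes (0.0748) and without the first sorted WT array (difference 0.5). Vehicle cells were 2.05-fold lower than the sorted WT fraction (-1.04, SE 0.15, adjusted p = 0.000717), which was -0.12 and not called under scaling by the array median. A dim further probe of Slc16a1, with a mean level of -3.57, gave 0.44 for vehicle against the sorted WT fraction.

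In all, 4 of the 9 genes were called higher and 4 lower in the sorted WT fraction than in whole testes, where 38.2% and 40.9% of all genes were. In N3KO cells 1 was called higher and 5 lower than in the sorted WT fraction, where 48.3% of all genes were called (25.5% higher, 22.8% lower). The count of genes called was 8 of 9 under scaling by the array median, where 71.8% of all genes were called. It was 4 with only the arrays compared, where 19.3% of all genes were called, or without the cultured groups. For vehicle against the sorted WT fraction 1 was called higher and 6 lower, where 74.6% of all genes were called (31.7% higher, 42.9% lower). The comparisons with the sorted WT fraction share its 2 arrays.

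**Figure D2:**
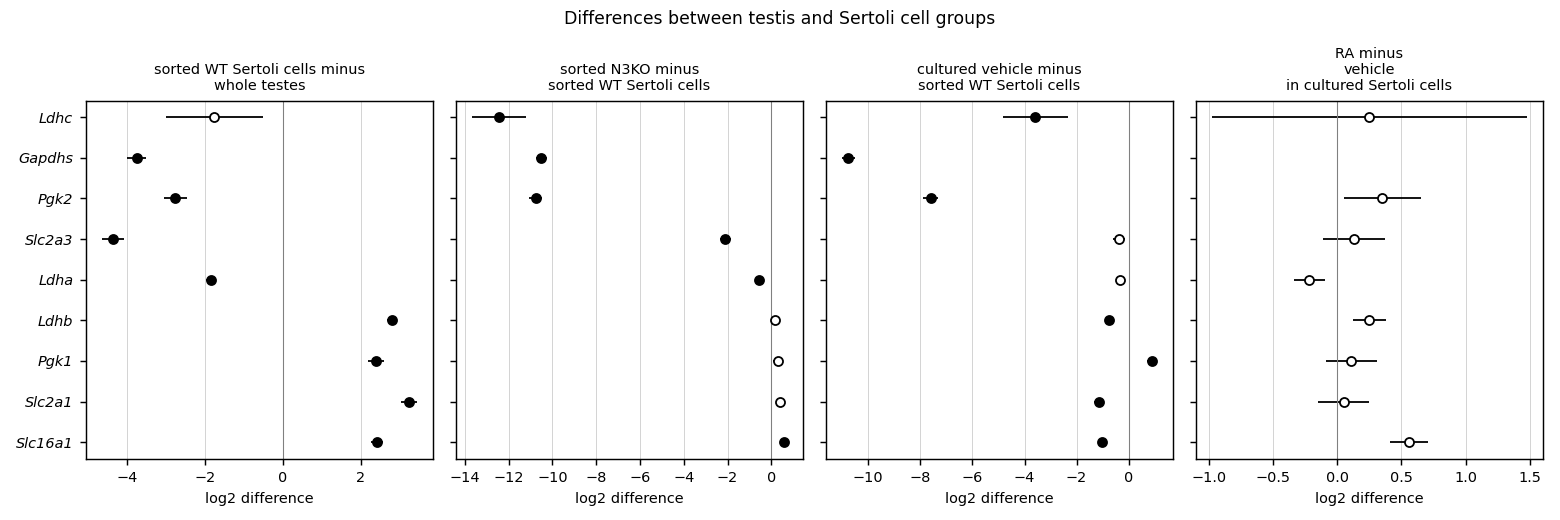
Log2 difference of each gene (points) with its SE (bars) in the 4 comparisons of testis and Sertoli cell groups, from limma. Filled points had an adjusted p under 0.05 and open points did not; each panel has its own axis, and Gapdhs has no point for RA against vehicle. Ldhb, Pgk1, Slc2a1 and Slc16a1 lie right of 0 and the other genes left of it for the sorted WT fraction against whole testes; no point is filled for RA.

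The forms of the same enzyme were also set against each other within each array, where scaling between arrays cancels. The log2 ratio depends on the 2 probes, so only its change between groups is read. Ldhc over Ldha was 1.5 and 1.66 in whole testes and 1.81 and 1.54 in the sorted WT fraction, an overlap, with -1.64 and -1.55 under vehicle. The drop of 3.27 in culture was therefore not matched by a drop on sorting (change 0.09). Pgk2 over Pgk1 was 5.2 and 5.18 in whole testes, 0.38 and -0.31 in the sorted WT fraction and -8.57 and -8.36 with vehicle. Both steps were without overlap, with changes of -5.15 and -8.5. Ldhc over Ldhb changed by -4.55 on sorting and by a further -2.84 in culture, again without overlap. With RA, Ldhc over Ldha was -0.91 and -1.35, a change of 0.46 from vehicle without overlap, while Ldhc over Ldhb and Pgk2 over Pgk1 overlapped.

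**Figure D3:**
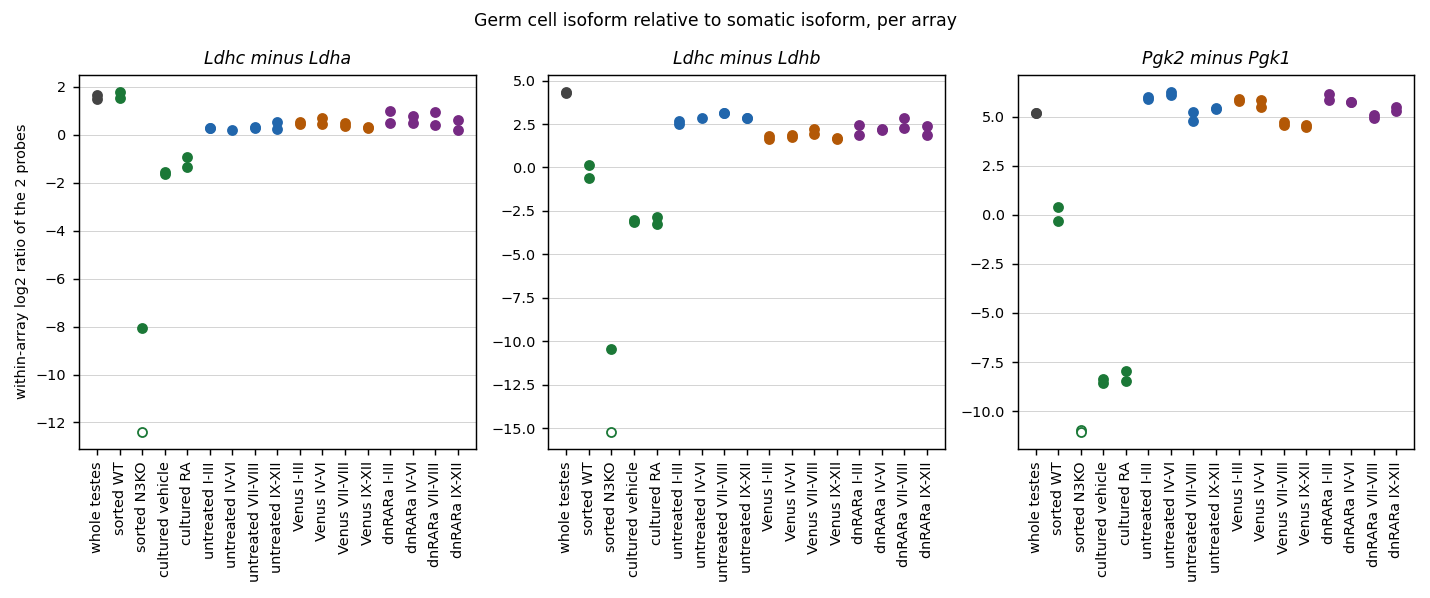
Log2 ratio within each array of the germ cell form to the general form, for Ldhc over Ldha, Ldhc over Ldhb and Pgk2 over Pgk1, in the 17 groups; each point is 1 array and open points have a probe not well above background. The level of a ratio depends on the probes, so only changes between groups are read. Pgk2 over Pgk1 falls from 5.2 and 5.18 in whole testes to -8.57 and -8.36 in cultured vehicle cells.

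To see whether RA moved these genes in cultured Sertoli cells, vehicle and RA arrays of the same slide were compared. None of the 8 genes tested was called by limma, where 5.47% of all genes tested were (3.55% higher, 1.92% lower). Slc16a1 was the only gene of the 8 under 0.05 before adjustment. It was 0.56 higher with RA (SE 0.15, adjusted p = 0.0923). Its RA arrays (2.74 and 2.72) lay above its vehicle arrays (2.18 and 2.15), and it was called under quantile scaling (0.55, adjusted p = 0.0465). Ldhb differed by 0.25 (SE 0.13, adjusted p = 0.377) and Ldha by -0.22 (SE 0.12, adjusted p = 0.427). With only the 4 arrays compared in the fit, Slc16a1, Ldhb and Ldha were called (adjusted p = 0.00331, 0.0295 and 0.0276), 3 of 8 where 35.8% of all genes were called. The other tested differences were 0.25 for Ldhc (SE 1.23), 0.35 for Pgk2 (-0.12 after normexp correction), 0.11 for Pgk1, 0.13 for Slc2a3 and 0.05 for Slc2a1. Cyp26a1, the RA-degrading enzyme induced by RA, went from not well above background on both vehicle arrays to 2.81 and 2.85 with RA. The meiotic entry gene Stra8 went from -0.02 and -0.04 to 3.94 and 3.83. Spermatogonia markers summed to 26.2-27.7 with vehicle and 87-87.3 with RA, with 1 of 4 tested called, higher. Spermatocyte markers summed to 12.8-13.1 and 13.5-14.6, with no call. The part of germ cells in the RA differences was not tested.

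Along the stages of the untreated tubules Slc2a3, Pgk1 and Gapdhs varied, 3 of 9 genes, where 69.1% of all genes tested did (F test in limma). Slc2a3 was 6.01 and 5.72 at I-III, 5.21 and 4.58 at IV-VI, 6.11 and 6.17 at VII-VIII and 6.69 and 6.66 at IX-XII. It was lowest at IV-VI and highest at IX-XII, without overlap, with a range of stage means of 1.78 (SE 0.21, adjusted p = 2.75e-05). Pgk1 was 0.2 and 0.27, -0.03 and 0.13, 0.86 and 1.08, and 0.76 and 0.68 in the same order, so that both later stage groups lay above both earlier ones (range 0.92, SE 0.13, adjusted p = 5.94e-05). Gapdhs was 6.17 and 6.11, 6.54 and 6.24, 5.81 and 5.57, and 6.31 and 5.79, lowest at VII-VIII, where it overlapped IX-XII (range 0.7, SE 0.15, adjusted p = 0.00456). The Gapdhs call was lost without the second VII-VIII array (adjusted p = 0.0526) and with only the untreated arrays in the fit (adjusted p = 0.139).

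The untreated I-III and IV-VI tubules each had a slide of their own, so stage and slide are partly confounded. Within the slide that held VII-VIII and IX-XII, the step to IX-XII was 0.54 for Slc2a3, -0.25 for Pgk1 and 0.36 for Gapdhs. The first untreated IX-XII array differed from its duplicate for several genes, with Ldha at 6.46 and 7.22 and Slc16a1 at 1.1 and 2.19. Without it 6 of the 9 genes varied with stage, the added genes being Ldha (adjusted p = 0.0069), Ldhb (0.0117) and Slc16a1 (0.00571). With all arrays, the ranges of stage means were 0.3 for Ldha, 0.39 for Ldhb, 0.41 for Ldhc, 0.24 for Pgk2, 0.15 for Slc2a1 and 0.22 for Slc16a1, with no call.

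The Venus tubules, where each of 2 slides held all 4 stage groups, varied for 5 of 9 genes, where 53.9% of all genes tested did. Slc2a3 was 5.62 and 5.44 at I-III, 5.5 and 5.07 at IV-VI, 6.46 and 6.17 at VII-VIII and 7.01 and 6.88 at IX-XII (range 1.66, adjusted p = 4.03e-05). Within each slide IX-XII was highest and IV-VI lowest, 1.51 and 1.81 apart. Pgk1 was 0.82 and 0.85, 0.76 and 1.02, 1.7 and 1.66, and 1.77 and 1.74 (range 0.92, adjusted p = 2.45e-05), so that both later stage groups again lay above both earlier ones.

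Gapdhs in Venus tubules was 6.55 and 6.57, 6.64 and 6.55, 5.79 and 5.93, and 6.12 and 6.17, lowest at VII-VIII without overlap (range 0.73, adjusted p = 0.00154). Pgk2 ran from 6.6 and 6.72 at I-III to 6.32 and 6.23 at IX-XII (range 0.39, adjusted p = 0.0106). Slc16a1 was 1.24 and 1.39 at I-III, 1.21 and 1.35 at IV-VI, 0.54 and 0.37 at VII-VIII and 0.79 and 0.9 at IX-XII (range 0.86, adjusted p = 0.0222), with the earlier stages above the later ones. Without the second Venus I-III array 3 genes were called, and Pgk2 (adjusted p = 0.0581) and Slc16a1 (0.0576) were not. The Pgk2 call was also lost without the second IX-XII array (0.0502), and the Slc16a1 call without the second IV-VI array (0.0509) or either VII-VIII array (0.0636 and 0.123). The dnRARa tubules had the same lowest stage for Gapdhs and Slc16a1 on each of their slides, VII-VIII, and the highest Slc2a3 at IX-XII. Over the arrays of an arm the spermatid marker sum ran from 685 to 1400 in untreated, 880 to 1200 in Venus and 643 to 1540 in dnRARa tubules, and its part in the stage differences was not tested.

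**Figure D4:**
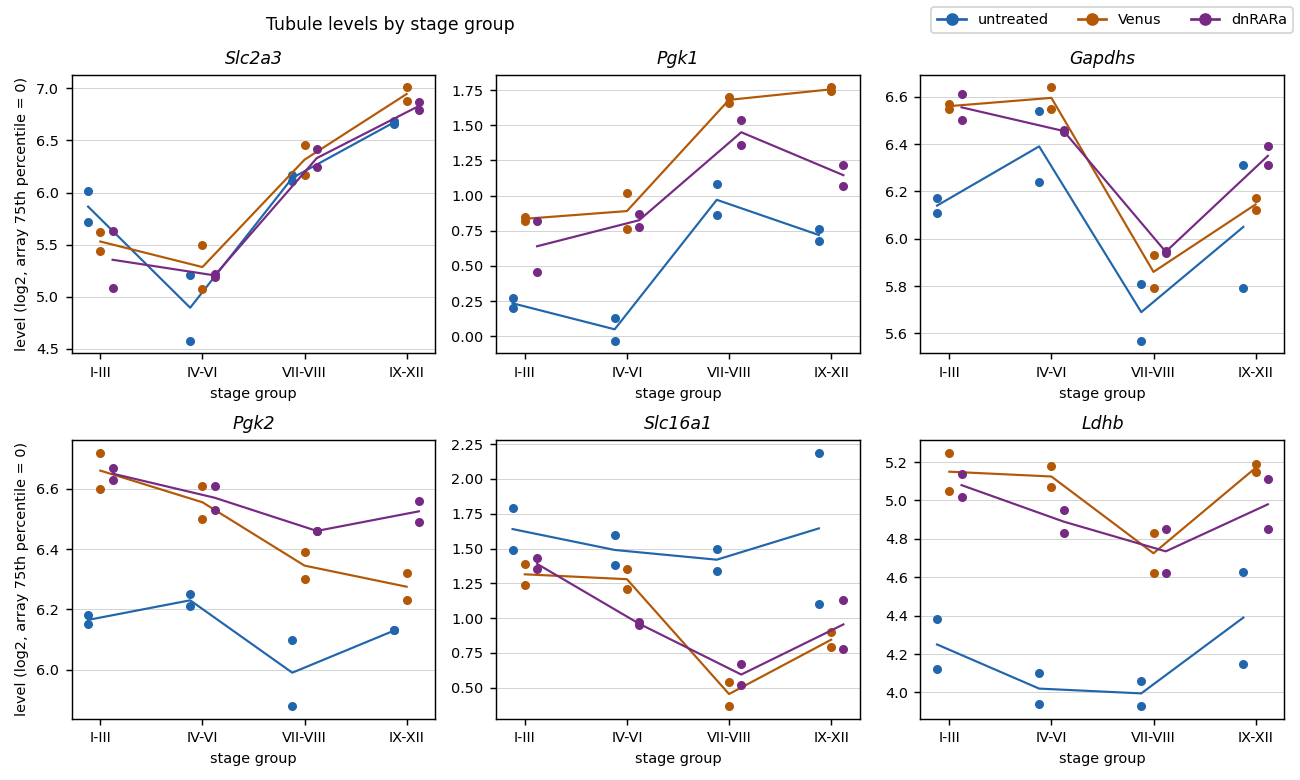
Level (log2, with the array's 75th percentile at 0) of 6 genes at the 4 stage groups in untreated, Venus and dnRARa tubules; points are single arrays, lines join the stage means, and each panel has its own axis. Slc2a3 is highest at IX-XII in each arm, with stage means of 6.68, 6.95 and 6.83, and Gapdhs lowest at VII-VIII, with 5.69, 5.86 and 5.94. Ldhb and Pgk1 lie lowest in untreated tubules at every stage group.

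To see whether dnRARa moved these genes, the dnRARa and Venus tubules were compared over the 4 stage groups. Both arms were scanned on the same days, but no slide held both, so viral insert and slide cannot be told apart. The main fit counted the arrays of a slide as independent. Of the 9 genes, Pgk1 alone was called, where 12.3% of all genes tested were (8.28% higher, 3.99% lower). Over 8 arrays Pgk1 had its lowest, median and highest values at 0.46, 0.97 and 1.54 with dnRARa and 0.76, 1.34 and 1.77 with Venus, with overlap. It was 1.21-fold lower with dnRARa (-0.27, SE 0.07, adjusted p = 0.0149). The difference was -0.19 at I-III, -0.06 at IV-VI, -0.23 at VII-VIII and -0.61 at IX-XII, and -0.15 and -0.4 on the first and second scan day. After normexp background correction it was -0.26 and no longer called (adjusted p = 0.102).

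The remaining differences between dnRARa and Venus were without a call. Ldhc differed by 0.32 (SE 0.14, adjusted p = 0.154), with 0.04 on the first day and 0.61 on the second. In these arms the replicate number is also the scan day and slide. With that number as a block within each arm Ldhc was called (adjusted p = 0.0155). Such a block takes the spread between the slides of an arm out of the error, while the arms themselves lie on different slides. That call is therefore not read as firmer than the main fit. Without the first dnRARa VII-VIII array the difference was 0.43. Ldha differed by 0.15, Ldhb by -0.12, Pgk2 by 0.09 and Slc2a3 by -0.09, with adjusted p from 0.261 to 0.651. Gapdhs (0.04), Slc2a1 (0.01) and Slc16a1 (0) had differences that changed sign under other scalings. No gene of the 9 differed in its dnRARa effect between stages (limma F test of the interaction, 0 of 9 also at an unadjusted p under 0.05), where 0.746% of all genes tested did. The lowest was Pgk1 (adjusted p = 0.535). The Sertoli marker sum was 23.4-42.8 with dnRARa and 15.6-39.4 with Venus. The median difference of these 10 markers was -0.17, with 1 called higher and 1 lower. Of 5 peritubular myoid markers, 3 were called lower with dnRARa (median -0.47, sums of 14.7-28.2 against 19.2-33.6), and of 7 Leydig markers tested 1 was (median -0.69). The part of these cell types was not tested.

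Venus and untreated tubules were scanned on different days, so virus and scan day cannot be told apart. Between them 6 of the 9 genes were called, 4 higher and 2 lower with Venus, where 67% of all genes tested were (36.3% higher, 30.6% lower). Ldhb had its lowest, median and highest values at 4.62, 5.11 and 5.25 with Venus and 3.93, 4.11 and 4.63 in untreated tubules, so that the arms overlapped only at the edge. It was 1.84-fold higher with Venus (0.88, SE 0.08, adjusted p = 3.34e-07). Pgk1 was 1.74-fold higher (0.79, SE 0.07, adjusted p = 1.19e-07), Pgk2 1.26-fold (0.33, SE 0.05, adjusted p = 3.34e-05) and Gapdhs 1.17-fold (0.22, SE 0.07, adjusted p = 0.0168). Slc16a1 was 1.49-fold lower (-0.58, SE 0.12, adjusted p = 0.000868) and Ldha 1.24-fold lower (-0.32, SE 0.1, adjusted p = 0.00926), though the mean of the Ldha probes gave 0.03. Within arrays, Ldhc over Ldhb was 1.62 to 2.22 with Venus and 2.48 to 3.13 in untreated tubules, without overlap. Sertoli markers were called higher with Venus for 8 of 10 genes (median 0.71, sums of 15.6-39.4 against 8.94-28.8) and peritubular myoid markers for 5 of 5 (median 0.79, sums of 19.2-33.6 against 12.5-26.5). Macrophage markers were called higher for 3 of 4 (sums of 1.04-2.28 against 0.427-1.57). The part of these cell types was not tested.

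The other genes of the pathway were read from 5 lists, whose median differences stand beside those of all genes. Of all genes tested, 79% were called in the sorted WT fraction against whole testes (40.9% lower). Among 12 other germ cell energy genes measured, 10 fell there and none rose (median -2.84, against -0.068 over all genes). They included the testis cytochrome c Cyct (-3.76, adjusted p = 1.88e-06) and Ldhal6b, a germ cell lactate dehydrogenase (-3.11, adjusted p = 9.94e-06). In N3KO cells 10 of the 12 fell against the sorted WT fraction (median -6.29, against 0.06), where 48.3% of all genes were called (22.8% lower). Of the 12, the cytochrome c oxidase subunit Cox8c was at least 777-fold lower (adjusted p of the fit = 2.9e-07). The testis pyruvate dehydrogenase subunit Pdha2 was at least 96.5-fold lower (adjusted p of the fit = 3.24e-07). In culture 12 of 12 fell (median -3.18, against -0.22), where 74.6% of all genes were called (42.9% lower).

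The 21 other glycolysis enzymes were mixed. In the sorted WT fraction 6 rose and 9 fell against whole testes (median -0.19, against -0.068 over all genes), near the 79% of all genes called, among them the phosphoglycerate mutase Pgam1 (2.93, adjusted p = 1.93e-06) and the hexokinase Hk1 (-2.84, adjusted p = 2.29e-06). In N3KO cells 3 of 18 tested rose and 3 fell (median -0.08, against 0.06, where 48.3% of all genes were called), with the hexokinase Hk2 at 1.99 (adjusted p = 0.00159). Between vehicle cells and the sorted WT fraction 2 of 19 were called higher and 12 lower (median -0.93, against -0.22, where 74.6% of all genes were called). Scaling by the array median gave 6 higher and 6 lower (median -0.01, against 0.702), where 80.1% of all genes were called. No direction is therefore given for the list. Called lower was, for example, the aldolase Aldoc (-4.12, adjusted p = 2.97e-05). With RA 1 of 18 was called, near the 5.47% over all genes. It was the phosphofructokinase Pfkl, which was 2.51 higher (SE 0.2, adjusted p = 0.000912). With dnRARa Pfkl was 0.88 lower than with Venus (difference -0.88, SE 0.1, adjusted p = 7e-05). This was the lowest adjusted p of 1 higher and 4 lower calls among 21, where 12.3% of all genes were called. Across stages Pfkl had a range of 1.89 in untreated and 1.66 in Venus tubules. In each, 12 genes of the list varied, of 20 and 21 tested, where 69.1% and 53.9% of all genes did.

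Among carriers of lactate and pyruvate, Slc16a3 (MCT4), the lactate exporter of glycolytic cells, was 4.65 higher in the sorted WT fraction than in whole testes (adjusted p = 1.26e-06) and 1.14 higher again in N3KO cells (adjusted p = 0.000205). Slc16a7 (MCT2) changed by -3.08 at sorting (adjusted p = 0.000662) and changed by -4.39 in N3KO cells (adjusted p = 0.000275). In all, 3 of 7 tested rose and 2 fell at sorting (median -0.18), where 79% of all genes were called. In N3KO cells 2 were called higher and 3 lower (median -0.5), where 48.3% of all genes were called. Scaling by the array median gave 3 and 1 (median 0.07), where 71.8% of all genes were called. The mitochondrial pyruvate carrier Mpc1 was 0.87 higher with RA (adjusted p = 0.00962), the only call among 8 tested, where 5.47% of all genes were called. Across stages Emb, the chaperone of MCT2, had a range of 2.54 in untreated and 2.54 in Venus tubules, and Slc16a3 of 2.23 and 2.21.

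Of the other glucose carriers, Slc2a8 had the lowest adjusted p across stages, with a range of 3.09 in untreated and 2.61 in Venus tubules (adjusted p = 1.06e-07 and 7.75e-07). Slc2a4 was 3.06 higher at sorting (adjusted p = 4.12e-06) and changed by -3 in culture (adjusted p = 4.48e-06). It was 1.24 higher with RA than with vehicle (adjusted p = 0.00517), the only call among 6 tested, where 5.47% of all genes were called. Of 11 genes of pyruvate and lactate use, 8 rose and 3 fell at sorting (median 1.64), where 79% of all genes were called. In N3KO cells 1 was called, lower, or 4 higher under scaling by the array median, where 48.3% and 71.8% of all genes were called. In culture 2 were called higher and 7 lower (median -0.48), or 7 and 3 under that scaling (median 0.44), so no direction is given for the list. Of all genes, 74.6% were called in culture, and 80.1% under that scaling. With dnRARa the D-lactate dehydrogenase Ldhd was 1.24 higher (adjusted p = 2.1e-05) and the pyruvate dehydrogenase kinase Pdk1 changed by -0.75 (adjusted p = 0.000117). These were 2 of 3 calls among 11, where 12.3% of all genes were called. Pdk1 was also 0.72 higher with RA than with vehicle (adjusted p = 0.0361). In the interaction none of the 5 lists had a call, where 0.746% of all genes tested were called.

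The genes most like each member were sought by Pearson r over the 17 group means, among 14597 genes. For Ldhc these were Cox8c (0.99), Mael (0.988) and Fabp9 (0.971), and for Ldha Spink10 (0.989), the pyruvate carrier subunit Mpc2 (0.987) and Calm3 (0.985). Gapdhs was matched by Zdhhc25, Ms4a5 and Dbil5 and Pgk2 by 1700018B08Rik and Adam3, each at 0.998. For Ldhb they were Bcat2 (0.984), B4gat1 (0.984) and Cox8a (0.982), and for Pgk1 Tbcd (0.997), Zdhhc3 (0.992) and Sars (0.991). Slc2a1 was closest to Zadh2 (0.994), Cdk2ap2 (0.992) and Fech (0.99), Slc2a3 to Ypel1 (0.995), Ilrun (0.994) and Ipo13 (0.99), and Slc16a1 to Itpr1 (0.972), Chac2 (0.968) and Rab3a (0.964). The 17 groups differ in germ cell markers, and such values are a description only.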

How the data were processed

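The authors' deposited intensity per spot (processed signal of Agilent Feature Extraction, version 9.5 per the submitters' processing notes and 9.5.3.1 per the file headers, from 0.2 µg of RNA) was read for 34 arrays. The series' deposited value table held the same intensity at all 45018 spots (tolerance 1e-06). The genome build behind the probes is not given in the sources used here. Of 45018 spots, 1639 control spots were dropped, and 32 to 274 outlier spots per array were set as missing. Spots of a probe were averaged as log2 intensity minus the array's 75th percentile. Of 41174 probes, 22951 were named by accession and 67 by symbol or synonym through the RefSeq table (GRCm38.p6), and 18156 stayed unnamed. A gene was read from its brightest probe; of the genes described, 5 had 1 probe and 4 had several.

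Linear models of limma 3.58.1 (R 4.3.3) were used, with the 10 arrays of testes and Sertoli cells in a first model and the 24 tubule arrays in another. To be tested, a gene had to be detected above background in both duplicates of some group compared. The p-values were adjusted by Benjamini-Hochberg over all genes tested, with a threshold of 0.05. The F tests covered the 4 stage groups. The labels call duplicates biological without naming the animals, and p-values measure the spread between these samples, pooled over all groups of a model. The number of arrays limits the precision. On simulated data with changed genes the fit for the sorted WT fraction against whole testes recovered 70% of changes of 1 log2 unit, that for RA 58% and that for dnRARa 96%. At 0.5 log2 units these were 16%, 10% and 72%. Each simulation changed 50 genes per size, of 15922 or 15833, all well above background on every array of the model, with independent noise. In the data many more genes were called, and in the virus arms arrays of a slide shared deviations. These rates therefore need not hold for the fits.

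Replicate numbers were checked by correlating deviations from group means. Of pairs of tubule groups, within and across arms, 44 of 66 were over 0.1 (median r 0.142). So were 20 of 28 pairs within and between the virus arms (median r 0.165), and 2 of 10 pairs of the other groups. In tubules the numbers thus carry some shared deviation, which the main fits left out and the replicate blocks took up. Within arms, 6 of 6 untreated, 5 of 6 Venus and 6 of 6 dnRARa pairs were over 0.1 (median r 0.38, 0.319 and 0.548), and in the virus arms the number is also the scan day and slide. The genes and lists were chosen with earlier results of these data known. Named besides the 10 genes were the 3 most alike genes of each and, per list and comparison, up to 4 called genes with the smallest adjusted p. Cyp26a1, Nanos3, Stra8 and marker genes were named as checks of the labels. Of the most alike genes, 1 is not reported here. Alternatives covered scaling, background correction, probes, the detection filter, the samples in the fit, slide and replicate blocks, and each array left out. Differences within scan days, median scaling of the lists, a replicate block within each arm and a fit without the cultured groups were added after the data were seen.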

Additional observations from a re-analysis of the deposited data

How the results depend on the processing

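Of 36 called results of single genes, 24 kept their direction and call under every alternative run, among them Ldhb, Pgk1, Slc2a1 and Slc16a1 higher and Ldha, Gapdhs, Pgk2 and Slc2a3 lower in the sorted WT fraction than in whole testes. The Slc2a3 result rests on 1 whole testes array, which could not itself be left out. The cause of the changes below was not tested. With 2 arrays a group, 58% of simulated RA changes of 1 log2 unit were recovered, and 10% of those of 0.5, in a simulation where few genes were changed.

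Median scaling gave 4 calls in place of 7 for vehicle against the sorted WT fraction (Gapdhs, Pgk1 and Pgk2 of the 7, and Ldha), and turned Ldha (0.6), Ldhb (0.17) and Slc2a3 (0.54) there, Ldha in N3KO cells (0.02), and Gapdhs (-0.01), Slc2a1 (-0.03) and Slc16a1 (-0.05) for dnRARa. Quantile scaling gave 1 call for RA and turned Gapdhs for dnRARa (-0.03). Normexp correction gave 5 calls across untreated stages and 0 for dnRARa (730 over all genes), and turned Ldhb in N3KO cells (-0.02), Pgk2 with RA (-0.12), and Slc2a1 (-0.02) and Slc16a1 (-0.01) for dnRARa. The mean of detected probes turned Gapdhs (-0.1) and Slc16a1 (-0.12) for dnRARa and Ldha for Venus against untreated (0.03). Fitting only the arrays compared gave 3 calls for RA.

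With the replicate number as a block, members called were 8, 6, 7 and 0 in the testis and Sertoli cell comparisons, and 3, 6, 1, 0 and 6 for untreated stages, Venus stages, dnRARa, interaction and Venus against untreated. The change was Ldhb across Venus stages (0.44, adjusted p = 0.0387). A block within each arm gave 2 calls for dnRARa, adding Ldhc (adjusted p = 0.0155). For dnRARa against Venus that block takes slide spread out of the error of a comparison between slides. Slide as a block gave 3, 5, 1, 0 and 6 in the tubule comparisons; the others had 1 slide or had group and slide confounded.

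Leaving out each array gave 7 to 8, 5 to 8, 6 to 8 and 0 to 0 genes called in the testis and Sertoli cell comparisons, 2 to 6 for untreated stages, 3 to 5 for Venus stages, 1 to 2 for dnRARa, 0 to 0 for the interaction and 6 to 7 for Venus against untreated. A lone array is then assumed to vary like the other groups. Differences that changed sign ran from -0.03 to 0.62 for Pgk1 in N3KO cells, 0 to 0.11 for Slc2a1 with RA, and -0.04 to 0.07 for Slc2a1 and -0.04 to 0.05 for Slc16a1 with dnRARa.

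Over all genes, calls moved from 10389 to 4154 (only the arrays compared) and 6792 (without the cultured groups) for N3KO, and from 1098 to 568 (normexp), 717 (no filter), 7187 (only the arrays compared) and 376 to 380 (arrays left out) for RA. They moved from 12714 to 8203 (normexp) for Venus stages, from 2959 to 4645 (only the arrays compared) and 5347 (block within arm) for dnRARa, and from 15890 to 23837 (no filter) for Venus against untreated. For the interaction 180 became 40, 85, 734 and 529 (normexp, no filter, only the arrays compared, block within arm), and 41 to 301 with arrays left out. The share of calls that were higher went from 52.9% to 64.5%, 76.9% and 63.6% for N3KO under quantile, median and normexp settings, from 42.5% to 53.5%, 66% and 49.7% for vehicle, and from 67.5% to 56.6%, 53.6% and 57% for dnRARa. For Venus against untreated it went from 54.3% to 30.2% (normexp). All-gene medians in N3KO were 0.06, 0.253, 0.631 and 0.258, in vehicle -0.22, 0.118, 0.702 and -0.068, and for Venus -0.322 with normexp.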
